A study of Mus musculus with 8 samples.

Results

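Chemokines are small secreted proteins that attract cells, and their receptors are seven-pass membrane proteins that signal through G proteins of the Gi family. In bone marrow and fetal liver the stroma makes Cxcl12, which holds B cell precursors near it through the receptor Cxcr4, while Ackr3 binds the same ligand and removes it. Later B cells use Cxcr5, Ccr7 and Ccr6 to find follicles, T cell zones and epithelium, and Ccl2, Ccl7 and Ccl9 recruit monocytes and related cells in inflammation. The genes described here were all those named Ccl, Cxcl, Ccr or Cxcr with a number on the array, with Xcl1, Xcr1, Cx3cl1, Cx3cr1 and Ackr3 (listed under its older symbol Cxcr7). They were 57 of the 31709 genes and other names on the array, 37 chemokines and 20 receptors, read by 69 probes.

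The cells were pro-B cells, the stage at which B cells of mice without Rag1 stop, and every group came from BALB/c Rag1 null mice. Adult bone marrow (BM) cells, from 2 mice per sort, received Lin28b in a retrovirus or its empty vector pMIG. Fetal liver (FL) cells, from a pool of embryos (average of 8 per sort) at gestation day 16, received let-7b or the empty vector MSCV. Lin28b binds let-7 precursors and stops their maturation, so one transduction brought the let-7 inhibitor into adult cells and the other brought let-7 into fetal cells. All groups grew with IL-7 on OP9, a mouse stromal line, and GFP+ cells were sorted 4 days after transduction. Each group had 2 arrays of 1 colour, from separate sorts. What was read is therefore the RNA of cultured cells that had shared wells with another cell type, and fewer cells of a type and less RNA per cell cannot be told apart.

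Levels are given as log2 of the processed intensity less that array's own 75th percentile, and differences are log2 with limma's standard error (n = 2 arrays per group). Of the 57 genes, 36 passed the filter (well above background on at least 2 of 8 arrays), 22 chemokines and 14 receptors, and 18 were above background on all 8 arrays. The FL arrays were dimmer, with raw 75th percentiles of 271 to 488 against 1925 to 2234 in BM, so their lowest level well above background was -5.65 to -4.49 against -7.14 to -6.87 in BM. Of 17 pro-B cell markers on the array, 17 were above background on every array, with mean levels of 3.30 to 3.80. The 4 BM arrays shared a slide, and each of 2 further slides held 1 FL empty-vector and 1 FL let-7b array, so replicate number and slide were the same for FL.

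The sequences shown are those of the microRNA, of some probes and of some promoters. No level or difference given here depends on the microRNA or promoter letters, and sites for let-7b were not searched. The microRNA brought into FL cells is given from RefSeq (GRCm38.p6, chr15:85707325-85707346, plus strand), with its seed, bases 2 to 8, in capitals.
mmu-let-7b-5p: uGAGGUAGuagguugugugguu
The next stretches are 30 bases of the array's own 60-base probes, with the capitals marking 20 bases shared with the probe of at least 1 other gene. They are shown because these probes may not read their named gene alone. The brighter Cxcl11 probe (mm9 chr5:92788567-92788626) shared such runs with probes of 5 other genes, among them Elk1, F10 and Med16, and its letters are those of the B1 family of interspersed repeats.
Cxcl11 probe: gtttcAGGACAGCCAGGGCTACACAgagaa
Ccl21b probe: ccctcCCCTTGTCCTTGCACCTATGattta
Ccl21a probe: ttCCCTTGTCCTTGCACCTATGatttatac
Of all 39429 probes, 440 (1.12%) shared a run of 20 bases with at least 5 other genes, and the Cxcl11 probe was the single one among the 69. Runs of 15 bases of it occurred in the promoters of 63 of 27025 genes, against a median of 1 for the probes of the other genes described here. The highest count among those was 28, for the Ackr3 probe, so that probe too may not read its gene alone. Ccl21a and Ccl21b are near-identical copies, and Ccl19 and Ccl27a lie beside them in a duplicated stretch of chromosome 4, so values of these genes are uncertain as to the copy.

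The promoters of 3 of the chemokines that differed between groups and held a motif match are shown, with matches in capitals. Each is the 250 bases before the start in RefSeq (GRCm38.p6). The motifs searched on both strands were AP-1 (TGANTCA), an interferon-response element (GAAA, any 2 bases, GAAA) and the NF-kB consensus. They were present in 7.82%, 3.46% and 8.23% of 27025 genes' windows and in 5, 3 and 10 of the 42 chemokine and receptor genes with a window. Ccl19 (interferon element) and Ccl27a (AP-1), both called higher in FL, also held a match and are not shown. Other chemokines that differed had windows without a match, among them Cx3cl1, Ccl21b and Cxcl9. A match describes letters and is no evidence of binding.
Cxcl1 (chr5:90890995-90891244, plus strand): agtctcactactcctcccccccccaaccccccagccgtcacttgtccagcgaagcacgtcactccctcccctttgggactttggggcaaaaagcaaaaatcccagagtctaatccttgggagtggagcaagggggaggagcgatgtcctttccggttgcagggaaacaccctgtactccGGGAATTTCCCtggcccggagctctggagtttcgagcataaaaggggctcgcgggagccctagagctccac
Ccl9 (chr11:83578637-83578886, minus strand): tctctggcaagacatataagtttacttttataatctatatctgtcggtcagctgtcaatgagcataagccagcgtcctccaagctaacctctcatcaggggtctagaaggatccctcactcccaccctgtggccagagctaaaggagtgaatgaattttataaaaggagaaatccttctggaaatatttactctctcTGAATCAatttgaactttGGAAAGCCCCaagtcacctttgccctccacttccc
Cxcl10 (chr5:92348890-92349139, minus strand): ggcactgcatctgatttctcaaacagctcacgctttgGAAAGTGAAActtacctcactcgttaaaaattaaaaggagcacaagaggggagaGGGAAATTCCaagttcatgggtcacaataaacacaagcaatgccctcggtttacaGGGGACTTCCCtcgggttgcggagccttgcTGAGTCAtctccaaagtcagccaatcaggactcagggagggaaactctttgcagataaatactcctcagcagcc
In Cxcl1 the match is to NF-kB, in Ccl9 to AP-1 and then NF-kB, and in Cxcl10 to the interferon element, NF-kB at 2 places and AP-1.

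**Figure D1:**
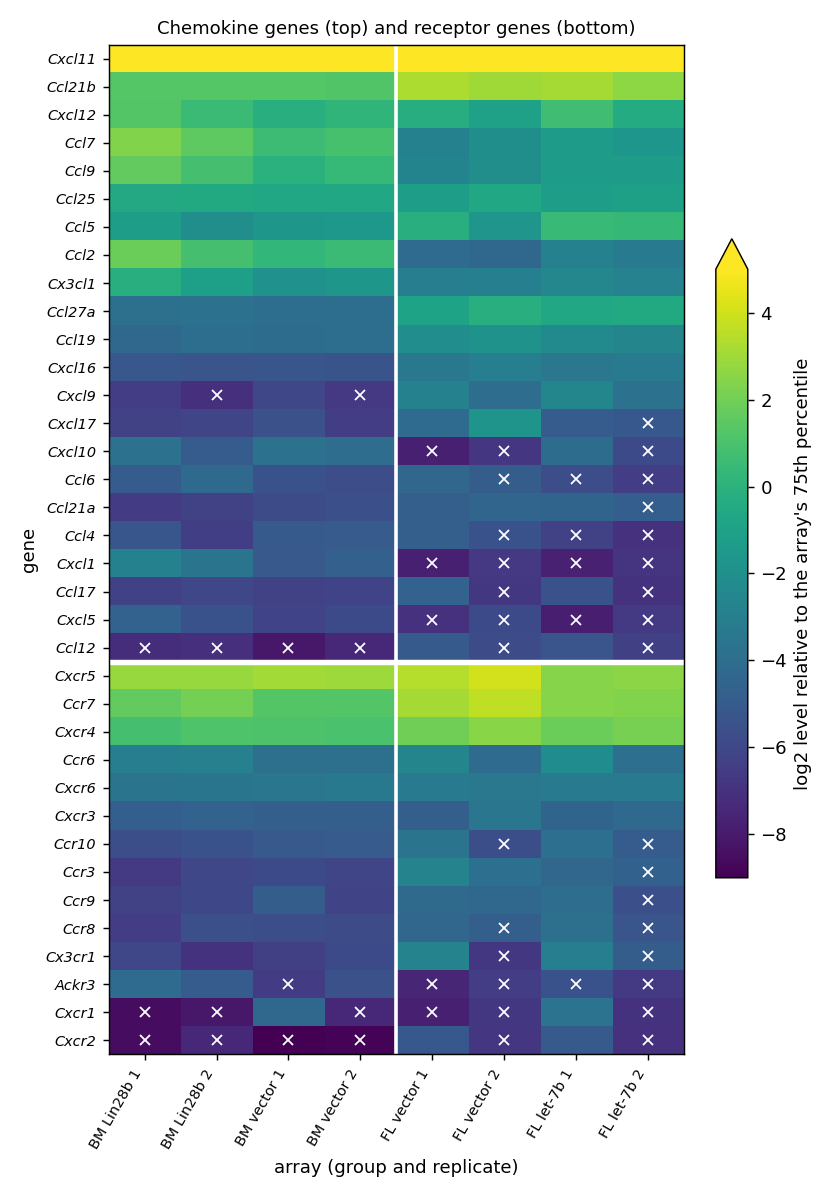
Log2 level (colour, relative to each array's 75th percentile) of the 22 chemokine and 14 receptor genes that passed the filter, on each of the 8 arrays; a white cross marks a value not well above background, and Cxcl11 lies beyond the top of the colour scale. Ccl2, Ccl7 and Ccl9 are brighter on the 4 BM arrays, and Ccl27a, Ccl19 and Ccr7 on the 4 FL arrays; colours compare arrays within a gene, not genes.

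With Lin28b in BM cells, no chemokine or receptor passed the test. limma called 0 of 36 (0% of all 22928 genes tested were called higher and 0% lower). At an unadjusted p under 0.05, 8 of the 36 were higher and 1 lower, against 1.95% and 1.62% of all genes. The 1 lower was Ccl21a, at -6.51 and -6.23 against -5.74 and -5.57. Differences of at least log2 1 in which the arrays of the groups did not overlap were found for 6 of 36 genes higher (1.57% of all genes) and 0 lower (0.558%). These were Cxcl1, Ackr3, Ccl7, Ccl9, Cx3cl1 and Ccl6. Ccl4, a macrophage chemokine, lay the other way, at -5.24 and -6.43 with Lin28b against -5.06 and -4.97 (-0.82 ± 0.47, adjusted p = 1).

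Ccl7, a monocyte attractant, lay at 2.32 and 1.53 with Lin28b and at 0.59 and 0.93 with empty vector, a difference of 1.17 ± 0.39 (adjusted p = 1, limma). Ccl2, the main ligand of Ccr2 and neighbour of Ccl7, lay at 1.85 and 0.85 against 0.25 and 0.55. Its difference, 0.94 ± 0.36, was just under log2 1 (adjusted p = 1), and it is named because of its place beside Ccl7. In both genes the Lin28b arrays were above the control arrays, and replicate 1 was the highest.

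Ccl9, a ligand of Ccr1 made by myeloid and stromal cells, lay at 1.64 and 0.86 with Lin28b and at -0.07 and 0.35 without (1.11 ± 0.34, adjusted p = 1). Ccl6, its neighbour on chromosome 11, lay at -4.93 and -4.19 against -5.48 and -5.68 (1.02 ± 0.38, adjusted p = 1). For Ccl6 it was replicate 2 that was highest, and on that array the mean level of 17 myeloid markers was -2.42, against -3.50 on the other Lin28b array and -3.83 and -3.73 on the controls. Of the 17, however, 9 had a positive and 8 a negative difference with Lin28b, with a median of 0.11. The log2 of their summed level was 6.49 and 6.62 with Lin28b against 6.59 and 6.62. Among these markers S100a9, a neutrophil gene, lay at 0.56 on replicate 2 of Lin28b and at -4.61, -9.08 and -8.87 on the other BM arrays. The part of such cells in the Ccl6 value was not tested.

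Cxcl1, which draws neutrophils through Cxcr2, lay at -2.86 and -3.59 with Lin28b and at -5.08 and -4.71 with empty vector. This was the largest of the 6 differences, at 1.67 ± 0.48 (adjusted p = 1). Cxcl5, another ligand of Cxcr2, lay at -4.57 and -5.47 against -6.16 and -5.87 (0.99 ± 0.58, adjusted p = 1). Cx3cl1, a chemokine anchored in the membrane, lay at -0.24 and -1.10 against -1.91 and -1.58 (1.08 ± 0.30, adjusted p = 1). Both Lin28b arrays read above both controls for Cxcl1, Cxcl5 and Cx3cl1.

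Cxcl12, the ligand that keeps precursors in the marrow, was read by a pair of probes. The brighter lay at 1.24 and 0.53 with Lin28b and at -0.15 and 0.16 without (0.88 ± 0.46, adjusted p = 1). The other lay at 0.54 and -0.30 against -1.11 and -0.79, and its difference was 1.07 ± 0.44 where every probe was tested (adjusted p = 1). Both probes put the Lin28b arrays above the controls.

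The 18 stromal cell markers tested were also higher on the Lin28b arrays. Their mean level was -0.84 and -1.33 with Lin28b and -2.02 and -1.80 with empty vector, and the log2 of their summed level ran from 5.20 to 5.80 against 4.44 to 4.69. Of the 18, 16 had a positive and 2 a negative difference, with a median of 1.05 against -0.04 over all genes, 10 were at least log2 1 higher without overlap, and 0 were called. Lum and Postn, of the same list, were below the filter. Vcam1, an adhesion molecule of stroma, lay at -1.45 and -2.24 against -3.16 and -2.90, and Col1a2, a collagen chain, at 3.27 and 2.70 against 1.77 and 2.05. The list was highest on replicate 1 of Lin28b, as were 5 of the 6 genes past log2 1. The part of stromal RNA in these chemokine values was not tested.

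**Figure D2:**
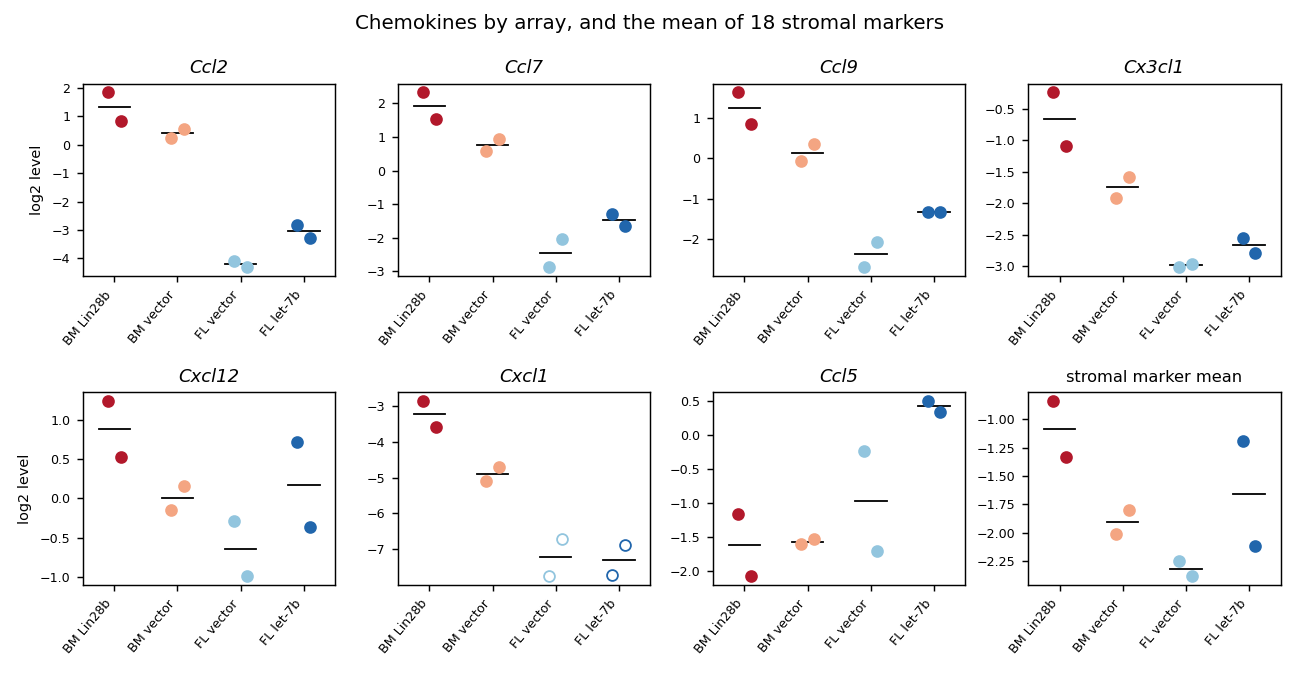
Log2 level of 7 chemokines, and the mean log2 level of 18 stromal markers, on each array (points) with the mean of each group (bars, n = 2); open points were not well above background, and each panel has its own axis. Ccl2, Ccl7, Ccl9, Cx3cl1, Cxcl12 and Cxcl1 were highest on replicate 1 of BM Lin28b, where the stromal mean was also highest (-0.84); Ccl5 was highest with let-7b in FL.

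Among receptors, Ackr3, the scavenger of Cxcl12, lay at -4.13 and -4.93 with Lin28b and at -6.59 and -5.54 with empty vector. The difference was 1.53 ± 0.61 (adjusted p = 1), but the probe was above background on 1 of the 2 control arrays. Cxcr4 lay at 0.85 and 1.15 against 1.08 and 1.00, a difference of -0.04 ± 0.23 (adjusted p = 1), and its groups overlapped. Ccr7 lay at 1.64 and 2.07 against 1.27 and 1.26 (0.59 ± 0.23, adjusted p = 1). Ccr6, a receptor for Ccl20, lay at -3.04 and -2.93 against -3.81 and -3.81 (0.83 ± 0.68, adjusted p = 1). Its BM arrays did not overlap, and the standard error comes from FL arrays that lay far apart. Cxcr5 lay at 2.86 and 2.83 against 3.06 and 2.92. Ccr7, Ccr6, Cxcr5, Ccl2, Cxcl5, Ccl4 and Ccl21a are outside the rule for named genes in this comparison and were picked with their values in view.

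With let-7b in FL cells, Cxcr5 and Ccr7 read lower on both slides and Ccl2, Ccl9 and Ccl5 higher, and again no chemokine or receptor passed the test. limma called 0 of 36 higher (0.0218% of all genes) and 0 lower (0.00872%). At an unadjusted p under 0.05, 5 were higher and 7 lower, against 4.42% and 5.35% of all genes. Past log2 1 without overlap were 3 of 36 higher (1.44% of all genes) and 4 lower (0.946%). Each slide held 1 array of either group, so the rule itself gives these 7 the same sign on both slides. With normexp the median difference of all genes was 0.34 in this comparison, against -0.06 here.

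Cxcr5, the receptor for the follicle chemokine Cxcl13, lay at 2.43 and 2.58 with let-7b and at 3.41 and 4.02 with empty vector. The difference was -1.21 ± 0.22 (adjusted p = 0.173), with -0.98 and -1.44 on the 2 slides. It passed in the authors' deposited table of normalized values (-1.15, adjusted p = 0.0489) and without replicate 1 of the empty vector (-1.51, adjusted p = 0.0356); over the alternatives its adjusted p ran from 0.0356 to 1. Ccr7, the receptor for Ccl19 and Ccl21, lay at 2.46 and 2.34 against 3.14 and 3.66 (-1.0 ± 0.23, adjusted p = 0.270), with -0.68 and -1.32 on the slides. For both receptors the let-7b arrays were below both controls.

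Ccr3, the eotaxin receptor, lay at -4.40 and -4.64 with let-7b, above background on 1 of these arrays, and at -2.74 and -3.88 without (-1.21 ± 0.40, adjusted p = 0.432; 0.36 with normexp). Cxcr4 lay at 1.86 and 2.13 against 1.96 and 2.51, with overlap (-0.24 ± 0.23, adjusted p = 0.809), and with -0.10 and -0.37 on the slides. Ackr3 was not above background on any of the 4 FL arrays. Ccr6 lay at -2.17 and -3.89 against -2.61 and -4.10, so that arrays of one slide were alike and the groups overlapped. Its differences on the slides were 0.43 and 0.22.

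**Figure D3:**
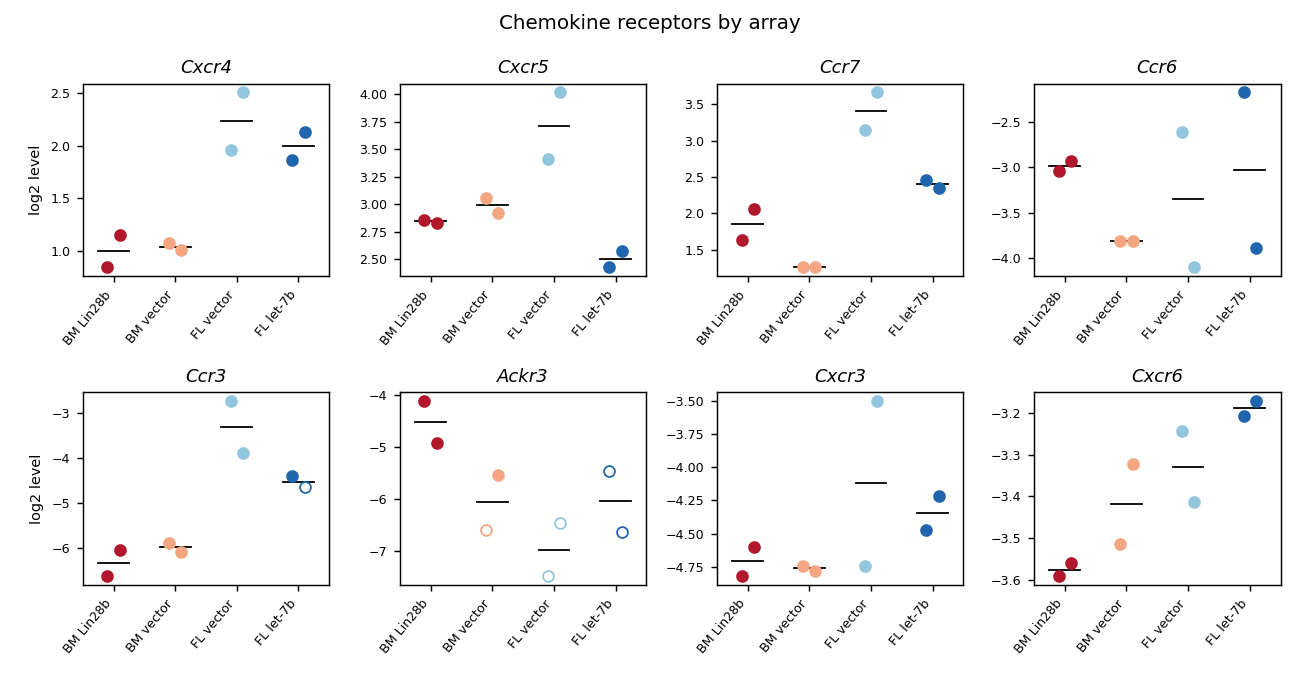
Log2 level of 8 receptors on each array (points; open where not well above background) with the mean of each group (bars, n = 2), each panel on its own axis. Cxcr5 and Ccr7 lay highest on the FL empty-vector arrays and lower with let-7b on both slides, while Ccr6 in FL followed the slide.

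Of the chemokines, Ccl2 lay at -2.83 and -3.27 with let-7b and at -4.09 and -4.31 with empty vector, a difference of 1.15 ± 0.36 (adjusted p = 0.398), with 1.26 and 1.04 on the slides. Ccl9 lay at -1.33 and -1.32 against -2.70 and -2.07 (1.06 ± 0.34, adjusted p = 0.412; 1.37 and 0.74 on the slides). Ccl7 lay at -1.29 and -1.65 against -2.87 and -2.03 (0.98 ± 0.39, adjusted p = 0.504), and, like Ccr6, Cxcl9 and Cxcl10 here, is outside the rule for named genes. In all 3 both let-7b arrays were above both controls.

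These 3 genes, picked with their values in view, had positive differences with let-7b in FL and with Lin28b in BM, comparisons that share no arrays. Of the 18 genes above background on every array, 6 were positive in both, 7 positive with Lin28b and negative with let-7b, 2 the reverse, and 3 negative in both. Ccl6, the neighbour of Ccl9 and not one of these 18, lay the other way from its Lin28b difference: it lay at -5.67 and -6.47 with let-7b, not above background, and at -4.36 and -4.88 with empty vector, above it on 1 array (adjusted p = 0.324). The stromal markers lay higher with let-7b too: their mean level was -1.19 and -2.12 with let-7b against -2.25 and -2.38, with 14 of 18 positive, a median difference of 0.87, and 4 past log2 1 without overlap. The log2 of their summed level was 4.48 and 4.04 with let-7b and 3.39 and 3.78 without. Cxcl12 lay at 0.72 and -0.36 against -0.29 and -0.99, with overlap (0.82 ± 0.46, adjusted p = 0.645), and with 1.01 and 0.62 on the slides. Its other probe lay at -0.97 and -2.08 against -2.33 and -2.51. The part of stromal RNA here was likewise not tested.

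Ccl5, which T cells and interferon-treated cells secrete, lay at 0.50 and 0.34 with let-7b and at -0.24 and -1.71 with empty vector (1.40 ± 0.53, adjusted p = 0.488). The differences on the slides were 0.74 and 2.05, and the low array was replicate 2 of the empty vector. Cxcl10, an interferon-induced ligand of Cxcr3, was above background on 1 of 4 FL arrays, a let-7b array at -4.07. Cxcl9, of the same family, lay at -2.56 and -3.80 against -2.85 and -4.01, with overlap, and with 0.29 and 0.20 on the slides. The 25 interferon-response genes tested had mean levels of 0.96 and 0.96 with let-7b and 0.46 and -1.30 with empty vector, so the array that was low in Ccl5 was also the lowest in this list. Their median difference was 1.53, with 24 positive and 1 negative, 16 past log2 1 without overlap and 0 called. With Lin28b the list went the other way, with a median of -0.86 and 25 of 25 negative, and Ccl5 lay at -1.16 and -2.07 against -1.61 and -1.53, with overlap. The 13 T, NK and innate lymphoid markers tested had 2 positive and 11 negative differences with let-7b, with a median of -0.39 against -0.06 over all genes. The part of the interferon response or of T cells in the Ccl5 values was not tested.

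Cxcl17, a mucosal chemokine, lay at -4.91 and -5.12 with let-7b, above background on 1 array, and at -4.10 and -1.78 without (-2.07 ± 0.75, adjusted p = 0.474; 0.12 with normexp). The high value of 1 control array set this difference: it was -0.81 on one slide and -3.34 on the other, and it passed only without replicate 1 of the empty vector (-3.23, adjusted p = 0.0437).

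Between tissues, FL cells with empty vector had more Ccr7, Cxcr4, Ccl27a, Ccl19, Ccl21b and Cxcl16 than BM cells with empty vector and much less Ccl2, Ccl7 and Ccl9. limma called 14 of 36 higher in FL (38.9%, against 40.1% of all genes) and 6 lower (16.7%, against 19.5%), so both shares were near the background. Past log2 1 without overlap were 12 higher (27% of all genes) and 6 lower (12.4%). Of the 18 genes above background on every array, 8 were called higher (42.3% of the 16675 such genes) and 4 lower (22.2%); the 36 as a whole include genes that passed the filter only through 1 tissue. With quantile scaling the calls were 10 higher and 8 lower, and 10 and 6 were called in the same direction under both scalings. Of all calls 67.3% were higher here, 48% with quantile scaling and 84.2% with normexp background correction, and all genes had median differences of 0.52, 0.02 and 0.98. Tissue, age, vector and slide cannot be told apart in this comparison.

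Cxcr4 lay at 1.96 and 2.51 in FL and at 1.08 and 1.00 in BM, a difference of 1.19 ± 0.23 (adjusted p = 0.00708). Ccr7 lay at 3.14 and 3.66 against 1.27 and 1.26 (2.14 ± 0.23, adjusted p = 0.00119). Cxcr5 lay at 3.41 and 4.02 against 3.06 and 2.92 (0.72 ± 0.22, adjusted p = 0.0325), little above the shift of all genes, and it was not called under 7 of 16 alternatives. Those included leaving out any 1 of the 4 BM arrays (adjusted p = 0.0652 to 0.141) or replicate 2 of the FL vector (0.42, adjusted p = 0.0519). Ccr3 lay at -2.74 and -3.88 against -5.88 and -6.07 (2.67 ± 0.40, adjusted p = 0.00310). With quantile scaling it was 1.79. In these 4 receptors both FL arrays were above both BM arrays.

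Ccr9, the receptor for Ccl25, lay at -4.14 and -4.29 against -4.85 and -6.12 (1.27 ± 0.61, adjusted p = 0.120). It was called with normexp (1.71, adjusted p = 0.0476) and was 0.24 with quantile scaling (adjusted p = 0.711), and its second probe was above background on 0 arrays. Cxcr2 was called higher (adjusted p = 0.0239) but was above background on 1 FL array, at -5.17, and on no BM array, so it has no fold. Its call was lost without replicate 1 of the FL vector or either BM vector array (adjusted p = 0.0787 to 0.103), and with quantile scaling (adjusted p = 0.378). Ackr3 was below background in FL and on 1 of 2 BM arrays, so it has no fold. It was not called (adjusted p = 0.240), was called lower with quantile scaling (adjusted p = 0.0217), and its sign turned with normexp. Cxcr6 lay at -3.24 and -3.41 against -3.51 and -3.32, and Cxcr3 at -4.74 and -3.50 against -4.74 and -4.78, neither called. With quantile scaling both signs turned, and Cxcr6 was called lower in FL (-0.63, adjusted p = 0.0165).

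Ccl2 lay at -4.09 and -4.31 in FL and at 0.25 and 0.55 in BM, a difference of -4.60 ± 0.36, 24.3-fold lower (adjusted p = 0.000685). Ccl7 was 9.24-fold lower (-3.21 ± 0.39, adjusted p = 0.00159) and Ccl9 5.76-fold lower (-2.53 ± 0.34, adjusted p = 0.00217), with no overlap. These sizes depend on the background correction: with normexp Ccl2 was at -2.70, Ccl7 at -2.37 and Ccl9 at -1.86, all still called, and with quantile scaling Ccl2 was at -5.14. Cx3cl1 lay at -3.01 and -2.96 against -1.91 and -1.58 (-1.24 ± 0.30, adjusted p = 0.0159). It was not called without replicate 2 of the BM vector (-1.07, adjusted p = 0.0868), nor without either FL vector array (-1.21, adjusted p = 0.0567, and -1.27, adjusted p = 0.0503), nor with normexp (-0.34, adjusted p = 0.586). Cxcl10 (-3.73 and -3.98 in BM) and Cxcl1 (-5.08 and -4.71) were not above background in FL, and were at least 2.32-fold and at least 1.13-fold lower there (adjusted p = 0.00863 and 0.00864); for Cxcl1 the call was lost without replicate 2 of the BM vector (adjusted p = 0.0519). Each bound sets the BM mean against the FL signal or, if higher, the dimmest level that counted as well above background. Both signs turned with normexp (0.45 for Cxcl10 and 1.17 for Cxcl1). Of 18 stromal markers, 8 were called lower in FL (19.5% of all genes) and 4 higher (40.1%), with a median of -0.73 against 0.52 over all genes. Other cell type lists lay the other way. Of 17 myeloid markers, 2 were called lower and 6 higher, with a median of 1.65. Of 13 T, NK and innate lymphoid markers, 1 was called lower and 8 higher, with a median of 1.54. The part of these cell types in the values between tissues was not tested. Cxcl12 lay at -0.29 and -0.99 against -0.15 and 0.16, not called (-0.65 ± 0.46, adjusted p = 0.263), while its other probe was called (-1.47 ± 0.44, adjusted p = 0.0314).

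Ccl27a, a ligand of Ccr10, lay at -0.87 and -0.23 in FL against -3.95 and -3.92 in BM, 10.5-fold higher (3.39 ± 0.22, adjusted p = 0.000553). The other 3 probes of Ccl27a were also called, with 2.25, 2.36 and 2.51. Ccl19, a ligand of Ccr7, lay at -2.14 and -1.79 against -4.04 and -3.93 (2.02 ± 0.20, adjusted p = 0.00100), and Ccl21b at 3.28 and 3.0 against 1.29 and 1.20 (1.90 ± 0.20, adjusted p = 0.00105). Ccl21a differed by 1.07 ± 0.20 (adjusted p = 0.00621), and by -0.02 with quantile scaling. Cxcl16, the ligand of Cxcr6, lay at -3.37 and -2.99 against -5.23 and -5.37 (2.12 ± 0.18, adjusted p = 0.000770). With quantile scaling Ccl19 was at 1.42 and Cxcl16 at 1.21, both still called.

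Cxcl9 lay at -2.85 and -4.01 against -6.05 and -6.68, above background on 1 of these BM arrays (2.93 ± 0.58, adjusted p = 0.00765; 2.03 with quantile scaling). A second probe of the same Cxcl9 transcript was above background on 0 of 8 arrays, the FL ones included. Cxcl17 lay at -4.10 and -1.78 against -5.53 and -6.46 (3.05 ± 0.75, adjusted p = 0.0165). That value rested on replicate 2 of the FL vector, since it was 1.89 without it (adjusted p = 0.0181) and 4.21 without replicate 1, and the call was lost without replicate 2 of the BM vector (adjusted p = 0.0869) with quantile scaling (2.11, adjusted p = 0.109) and in a fit of only the 4 arrays compared (adjusted p = 0.0596). Ccl12 was called higher (adjusted p = 0.00654) but was above background on 1 FL array and no BM array, so it has no fold. Cxcl11 was called at 2.22 ± 0.18 by the repeat-bearing probe shown above (adjusted p = 0.000706), at levels of 9.60 and 9.56 against 7.55 and 7.17. Its second probe differed by 0.88 ± 0.29 (adjusted p = 0.0432), and the brighter one by 0.40 with quantile scaling (adjusted p = 0.137). Runs of 15 bases of the second probe occurred in the promoters of 17 other genes, so it too may not read Cxcl11 alone.

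**Figure D4:**
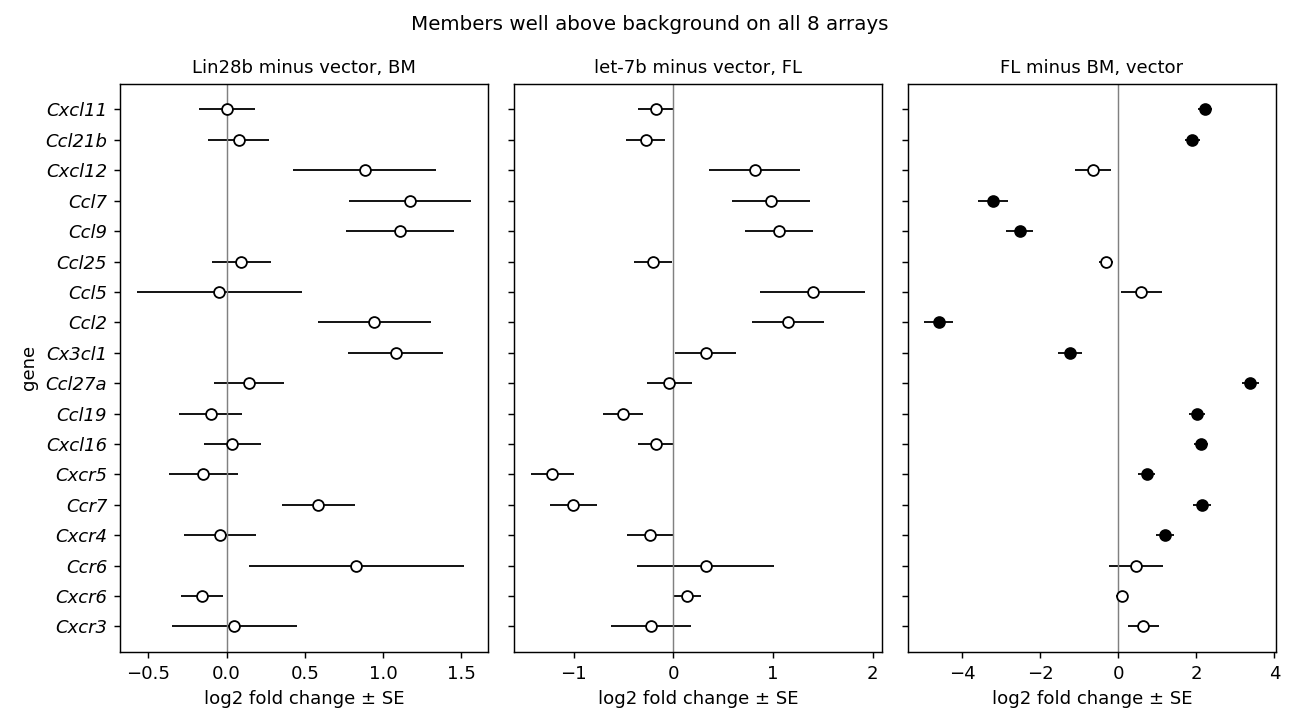
Log2 fold change with limma's standard error (bars; n = 2 arrays per group) of the 18 genes above background on all 8 arrays, in the 3 comparisons; filled points were called at an adjusted p under 0.05, and each panel has its own axis. No point is filled for Lin28b or let-7b; between tissues 8 were called higher in FL and 4 lower.

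Which probes were detected varied along the gene clusters. Probes differ in sensitivity, so detection by one and not another does not order the genes: the 2 probes of Ccr9 were above background on 7 and 0 arrays. On chromosome 11 (mm9), Ccl2 (chr11:81850650-81850709) and Ccl7 (chr11:81860656-81860715) were above background on all 8 arrays, whereas Ccl11 and Ccl8 in the same cluster were above background on none. Ccl12, between them, was above background on 2 arrays and Ccl1 on 1. In the next cluster Ccl5 and Ccl9 were above background on all 8, Ccl6 and Ccl4 on 5 each, and Ccl3 on 1. On chromosome 5 Cxcl1 and Cxcl5 were above background on the 4 BM arrays alone, while their neighbours Cxcl2 and Cxcl3 were above it on none. Among the receptor genes of chromosome 9, Cxcr6, the brighter Ccr9 probe and Ccr3 were above background on 7 or 8 arrays, and Xcr1, Ccr1, Ccr1l1 and Ccr2 on none.

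The 21 genes below the filter were above background on 0 arrays (15 genes) or on 1 (6 genes, among them Ccl1, Ccl3, Cxcl15 and Xcl1). The 15 included Ccr1, Ccr2 and Xcr1 and the ligands Ccl20, Ccl22, Cxcl13 and Cxcl14, so that the ligand of Cxcr5 was not detectable where the receptor was. Some single readings stood out and were picked with their values in view. Cxcl15 lay at -1.97 on replicate 2 of let-7b and between -9.27 and -6.68 on the other 7 arrays. Cxcr1, of the 36 tested, lay at -4.24 on replicate 1 of the BM vector and -3.65 on replicate 1 of let-7b and was below background elsewhere.

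Genes that act with these chemokines and receptors were described from 5 lists. In the lists for receptor signalling (27 tested), desensitisation (14), integrins and adhesion (12), other chemoattractant receptors (9) and other ligands, decoy receptors and proteases (10), limma called 0 genes with Lin28b and 0 with let-7b. Their median differences were -0.06 to 0.05 with Lin28b, against -0.04 over all genes, and -0.45 to 0.00 with let-7b, against -0.06. The integrin chain Itgb7 differed by 0.87 ± 0.22 with Lin28b (adjusted p = 1) and by -0.76 ± 0.22 with let-7b (adjusted p = 0.373). The receptor for platelet-activating factor (Ptafr) differed by -1.24 ± 0.18 with let-7b (adjusted p = 0.120).

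Between tissues, 40.1% of all genes were called higher in FL and 19.5% lower, the shares against which the lists are to be read. Receptor signalling had 15 of 27 called higher and 1 lower, with Gnai1, a Gi subunit, at the smallest adjusted p (5.78 ± 0.44, adjusted p = 0.000647). Desensitisation had 4 higher and 3 lower of 14, with Rgs2 at 2.10 ± 0.21 (adjusted p = 0.00101) and Rgs18 at -3.16 ± 0.45 (adjusted p = 0.00251), both shortening G protein signals. Integrins and adhesion had 7 and 3 of 12, with Itga6 at 1.59 ± 0.13 (adjusted p = 0.000766) and Itga4, a chain of the Vcam1 receptor, at -1.27 ± 0.17 (adjusted p = 0.00221). Other chemoattractant receptors had 6 and 0 of 9, among them S1pr1, which guides exit from marrow (2.87 ± 0.39, adjusted p = 0.00214). Of the other ligands, decoys and proteases 4 and 2 of 10 were called, with Mif, a ligand of Cxcr4, at 2.10 ± 0.20 (adjusted p = 0.000912) and Cd74, its receptor, at -2.25 ± 0.25 (adjusted p = 0.00127).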

How the data were processed

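RNA of the 4 groups was read on 8 arrays of 1 colour. Per the file headers, the deposited intensity values were background-corrected by Agilent Feature Extraction 9.5.3.1, and probe positions are on mm9. The authors also deposited a table of normalized log2 values, with a method not given in the sources used here and an unknown centring. Its column medians were 7.14 to 7.16 for BM and 6.13 to 6.14 for FL, so it was used within a tissue only.

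From each array's 43020 spots other than controls, log2 of the processed signal minus its 75th percentile was taken. Copies of a probe were averaged, 31 probes with an outlier flag were left out, and probes well above background on under 2 of 8 arrays were left out. The probe of highest mean was tested for each of 22928 genes with limma 3.58.1 (R 4.3.3; lmFit, eBayes, 1 mean per group over 8 arrays), with Benjamini-Hochberg adjustment over all of them, called under 0.05. With 2 arrays against 2, an exact two-sided permutation test cannot go below p = 0.333, so calls rest on the spread shared between genes; precision is limited by having 2 arrays per group. The p-values rest on the spread between the 2 arrays of a group, pooled over the 4 groups. In FL that spread is of sort and slide together. Between tissues the p-values do not measure how much slide or vector adds to a difference.

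Tested on simulated data, in which 200 of 22928 genes changed and each tissue had its own spread, the fit did as follows. It recovered 118 of 200 with Lin28b, 129 with let-7b and 123 between tissues, and called 1, 91 and 19 unchanged genes, since the median SD of a gene was 0.29 and 0.22 in the FL groups and 0.08 in both BM groups. The shared spread is thus too small for FL and too large for BM, and p-values within FL are too small. A fit with array weights by tissue was added after this was seen. On the same simulated data it recovered 185 of 200 with Lin28b, 90 with let-7b and 120 between tissues. It called 50, 15 and 13 unchanged genes, so more than the main fit with Lin28b.

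A member was named with its test where it was called, or differed by at least log2 1 without overlap and was above background on all arrays of whichever group was higher; Cxcl12, Cxcr4 and Ackr3 were named throughout, as were up to 4 genes of each pathway list by smallest adjusted p. Values of some single genes are not reported here. The members, lists and named genes were chosen with earlier results of these data known. The alternatives were quantile scaling, normexp background correction (offset 50), no filter, eBayes with trend and robust, only the arrays compared, every probe, the deposited table, the replicate number as a block, and leaving out each array. Same-numbered FL arrays, which shared a slide, deviated together (correlation 0.517), and same-numbered BM arrays did not (-0.055). Marker lists covered stromal, myeloid, T, NK and innate lymphoid, dendritic, mast, endothelial, erythroid, hepatocyte and pro-B cells, with interferon and NF-kB response genes. Promoters and let-7b came from RefSeq tables of GRCm38.p6, and Python 3.11.15 with matplotlib 3.10.9 drew the plots.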

Additional observations from a re-analysis of the deposited data

How the results depend on the processing

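Of 48 named fold changes, 39 kept their direction under every alternative. Without replicate 1 of BM Lin28b, Cxcr4 turned to 0.11 with Lin28b (-0.20 to 0.11 over arrays left out), and without replicate 2 of the FL vector to 0.035 with let-7b (-0.51 to 0.035). Ccr6 with let-7b turned to -0.42 without that array and -0.53 without replicate 1 of let-7b (-0.53 to 1.18). With normexp, Ccr3 (0.36) and Cxcl17 (0.12) turned with let-7b, and Ackr3 (1.85), Cxcl1 (1.17) and Cxcl10 (0.45) turned between tissues. With quantile scaling Ccl21a turned between tissues (-0.023). The causes were not tested.

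Counts of called genes stayed at 0 with Lin28b under every alternative. With let-7b they were 1 lower in the deposited table, 0 to 2 lower when an array was left out (2 without replicate 1 of the FL vector), and 0 otherwise. Between tissues, calls were 34 without a filter (28 higher), because 14 of the 21 genes below the filter were then called higher in FL and 0 lower. Those 21 were above background on 0 arrays or on 1, so these calls give no fold. The lowest level well above background was itself higher in FL (-5.65 to -4.49) than in BM (-7.14 to -6.87). With normexp 3 genes were called lower. When an array was left out, calls between tissues ran from 15 to 22, with 11 to 16 higher and 4 to 6 lower. Genes at least log2 1 higher without overlap with Lin28b numbered 6, 3 with normexp, and 3 to 8 when an array was left out (3 without Lin28b replicate 1); those lower were 0 to 2. With let-7b the 3 higher became 1 in the deposited table and 2 to 8 when an array was left out (8 without replicate 2 of let-7b). The 4 lower became 2 with normexp, 1 in the deposited table and 3 to 5 without an array. Between tissues the 12 higher became 11 to 19 (19 without replicate 2 of the FL vector), and the 6 lower became 3 with normexp and 6 to 7 without an array. The replicate block gave 0 calls with Lin28b, 0 with let-7b and 22 between tissues (16 higher, 6 lower), against 20 without it. Weights by tissue gave 0, 0 and 19, the call lost being Cx3cl1 (adjusted p = 0.117).

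Signal over background was the limit for 21 of 57 genes, and more so on the dimmer FL arrays.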
